A study of Saccharomyces cerevisiae with 18 samples.

Results

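The response of the phosphomimetic strain hcm1-8E to lithium chloride was described across all genes, from 3 cultures in medium with 150 mM LiCl and 3 cultures in control medium, 6 of the 18 libraries of the series. Of the 7126 genes in the count table, 6239 had enough counts to be tested. The cells were MATa haploids of the BY4741 background with the markers his3Δ1, ura3Δ0, leu2Δ0 and lys2Δ0. Their genomic HCM1, tagged with 3HA and followed by the marker KanMX, stood behind a GAL1 promoter that was preceded by the marker HIS3MX6. This copy was on in the galactose starter cultures and shut off by dextrose once the experiment began. A GFP gene with a hygromycin marker was inserted on chromosome VI. The only other source of Hcm1 was a centromeric URA3 plasmid, pRS316, on which the HCM1 promoter drove hcm1-8E with a 3V5 tag, and cells were kept in synthetic medium without uracil. In Hcm1-8E every cyclin-dependent kinase (CDK) site of the transactivation domain is replaced by glutamic acids, which mimic the charge of phosphate and cannot be removed by a phosphatase. All cultures grew for 40 h in all and were collected while growing logarithmically, so the values describe cells that had lived in LiCl for many hours and not the first minutes of the stress. The strains WT and hcm1-3N, used for the comparison of responses, carried WT HCM1 or a stabilised Hcm1 with a mutated N-terminal degron on the same plasmid and were grown in the same media, and everything else in the genotype was shared.

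Hcm1 is a forkhead transcription factor of S phase that switches on genes for chromosome segregation and for the next steps of the cell cycle. CDK phosphorylates its transactivation domain and activates it, and calcineurin, the calcium-dependent phosphatase that ionic stress turns on, removes these phosphates. Lithium is a toxic analog of sodium in yeast. It is pumped out by the Ena P-type ATPases, and it inhibits a small set of magnesium-dependent enzymes, among them the nucleotidase Met22 (Hal2) of the sulfate assimilation pathway, the inositol monophosphatases and phosphoglucomutase. Loss of Met22 activity leaves adenosine bisphosphate, which blocks the RNA exonucleases Xrn1 and Rat1. The stress response of yeast that is shared by many conditions runs through Msn2 and Msn4, which bind the stress response element (STRE) upstream of genes for trehalose, glycogen and chaperones, while genes for ribosome assembly usually move in the other direction.

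Windows of 300 bases, starting 400 bases before the start codon, are printed for 4 genes described below, because each holds an element that is searched for in the gene lists. They were read from the R64 genome with RefSeq gene positions, 5′ to 3′ on the strand of the gene, and the letters of the named element are in capitals on whichever strand they lie.
RRP36 (ribosome assembly, PAC element GATGAG): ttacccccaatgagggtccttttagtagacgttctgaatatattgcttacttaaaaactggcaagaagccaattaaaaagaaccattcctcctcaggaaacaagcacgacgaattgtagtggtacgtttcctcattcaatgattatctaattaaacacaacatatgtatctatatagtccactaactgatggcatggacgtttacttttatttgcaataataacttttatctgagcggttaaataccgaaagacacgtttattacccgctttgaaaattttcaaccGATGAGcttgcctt
SNZ1 (vitamin B6 synthesis, Gcn4 site TGACTC): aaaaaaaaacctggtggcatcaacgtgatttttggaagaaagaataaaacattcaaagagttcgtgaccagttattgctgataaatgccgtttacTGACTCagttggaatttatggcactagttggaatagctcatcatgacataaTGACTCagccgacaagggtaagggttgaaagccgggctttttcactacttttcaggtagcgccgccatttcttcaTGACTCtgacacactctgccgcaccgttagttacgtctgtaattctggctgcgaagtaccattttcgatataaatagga
TPS1 (trehalose synthesis, STRE AGGGG): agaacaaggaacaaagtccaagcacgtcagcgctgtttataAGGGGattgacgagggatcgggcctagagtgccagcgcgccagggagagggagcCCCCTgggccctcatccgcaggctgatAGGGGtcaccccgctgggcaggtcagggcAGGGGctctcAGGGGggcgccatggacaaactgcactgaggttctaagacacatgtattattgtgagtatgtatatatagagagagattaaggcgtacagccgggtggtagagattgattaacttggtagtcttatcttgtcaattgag
TPS2 (trehalose synthesis, STRE AGGGG): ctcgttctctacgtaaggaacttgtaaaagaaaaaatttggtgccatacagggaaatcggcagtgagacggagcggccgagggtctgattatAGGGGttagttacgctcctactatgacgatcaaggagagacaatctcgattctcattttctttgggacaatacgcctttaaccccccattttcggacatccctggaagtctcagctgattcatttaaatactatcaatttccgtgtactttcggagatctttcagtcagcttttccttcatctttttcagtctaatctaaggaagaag
The RRP36 window (chromosome XV, 851940 to 852239, minus strand) holds 1 PAC element, 114 bases before the start codon, and 119 of its bases lie in the neighbouring gene MPD1. The SNZ1 window (chromosome XIII, 458008 to 458307, plus strand) holds 3 Gcn4 sites and lies in the 448 bases that SNZ1 shares with the divergent gene SNO1. The TPS1 window (chromosome II, 490493 to 490792, minus strand) holds 5 STRE and the TPS2 window (chromosome IV, 593493 to 593792, plus strand) 1. A match of letters is a description of the sequence and no evidence of binding.

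The libraries of hcm1-8E held 21528235 to 21766530 counts in LiCl and 21703147 to 21745280 counts in control medium, within the range of 18816441 to 21851012 for all 18. The labels were checked on marker genes. All 7 genes of a-type cells were above 5 TPM (the transcripts per 1000000 given by the authors) in every library. Of 36 sporulation genes 25 stayed under 5 TPM everywhere. The alpha-type genes STE3 and SAG1 were counted, at 4.20 to 6.20 and 16.1 to 20.3 TPM. HMLALPHA1 and HMLALPHA2 had 0 counts, which cannot check the mating type. The reference genome holds another copy of each, and only fragments above a limit of mapping quality were counted. LEU2 and LYS2, deleted in the strain, had 0 counts in all libraries. HIS3, whose allele his3Δ1 removes only part of the gene, was counted, at 120.4 to 171 CPM in LiCl and 78.7 to 85.8 CPM in control medium in hcm1-8E. Same-numbered cultures moved together: the deviations of the LiCl and the control library from their group means correlated over genes at 0.24 to 0.53 in the 3 pairs of hcm1-8E, and at -0.18 on average between differently numbered libraries. Deviations within a group sum to 0 for each gene, so the negative average follows from the positive correlations and adds no support of its own. Control replicate 3 correlated as much with LiCl replicate 2 (0.27) as with LiCl replicate 3 (0.24), so that the numbers set replicate 1 apart more clearly than replicates 2 and 3 from each other. Replicate 1 of LiCl stood apart from the other 2 in several groups of genes. The summed level of 19 trehalose and glycogen genes was 962 CPM (counts scaled to a common library size with TMM factors, per 1000000) in it, against 6188 and 9293 CPM in replicates 2 and 3 of LiCl, with 8090, 12351 and 11231 CPM in the control cultures. Replicate 1 of LiCl deviated alike in the other strains. Its deviations in WT and hcm1-3N correlated with those in hcm1-8E at 0.87 and 0.84. The trehalose gene TPS2 was at 80.8, 1121 and 975 CPM in LiCl in WT, and at 81.3, 908 and 1140 CPM in hcm1-3N. A fit with the replicate number as a block gives both media the same shift. It cannot remove a shift that is larger in LiCl. Values without replicate 1 are therefore given beside the results that rest on this replicate.

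LiCl changed a large part of the transcriptome of hcm1-8E by small amounts. Of the 6239 genes tested, 3004 (48.1%) passed an adjusted p of 0.05 (quasi-likelihood test of edgeR, replicate number as a block, p-values adjusted over all genes tested), 1648 (26.4%) higher and 1356 (21.7%) lower in LiCl. The median absolute log2 fold change was 0.53 among these genes and 0.32 among all tested, with a median standard error of 0.12. A change of at least 1 on the log2 scale was reached by 232 of the higher and 89 of the lower genes, and a change of at least 2 by 20 and 4. In 2916 of the 3004 all 3 pairs moved in the direction of the fold change, and for 2776 (44.5%) of all genes tested the CPM of LiCl and control cultures did not overlap. Without the block the count was 1842 (29.5%), 1065 higher and 777 lower, and each of these genes was also among the 3004. Without replicate 1 it was 2940 (47.1%), of which 2462 were among the 3004 and 0 of them had the opposite sign. Scaling by library totals alone moved the median of all genes by 0.10. The share of higher genes among those called was 67.6% with it, 54.9% with TMM and 51.9% with RLE size factors. Small changes near 0 are therefore relative to the scaling. The counts of list members below are to be read beside the 26.4% higher and 21.7% lower of all genes tested.

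**Figure D1:**
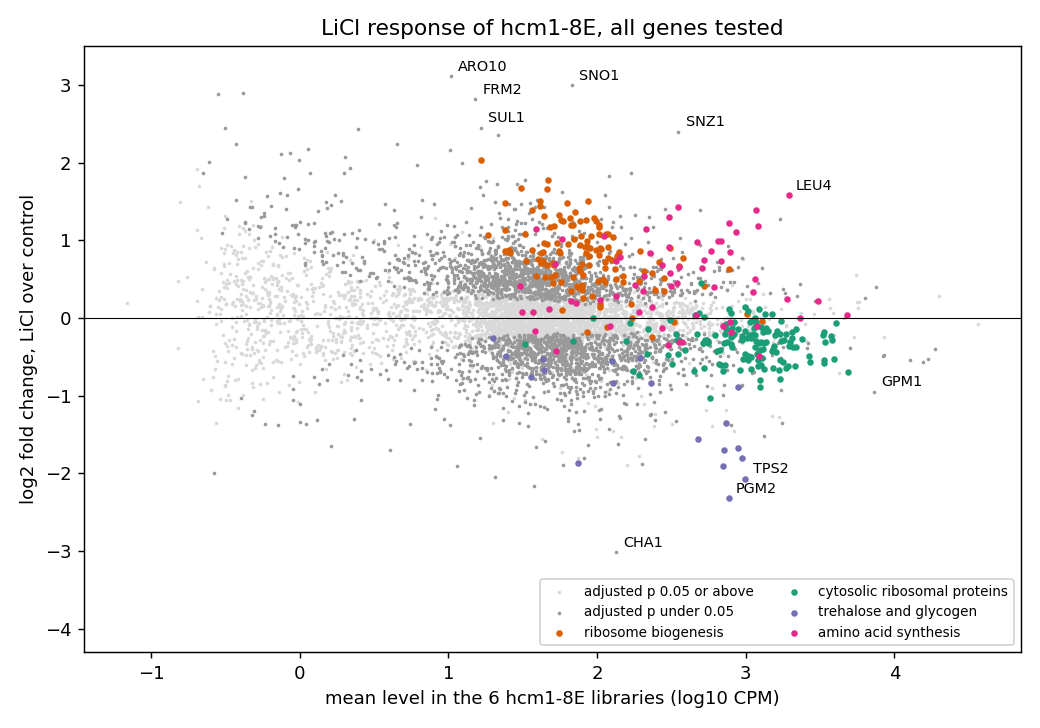
Log2 fold change of each gene tested, LiCl over control in hcm1-8E (vertical axis), against the log10 of its mean CPM over the 6 libraries (horizontal axis), with genes under and over the adjusted p of 0.05 in grey and 4 gene lists in colour. Genes of ribosome assembly lie above 0 at moderate levels (median 0.81), ribosomal proteins lie below 0 at high levels (median -0.30), and the trehalose and glycogen genes reach down to PGM2 (-2.32), which did not pass.

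The largest rises included genes that break down aromatic amino acids and the vitamin B6 gene pair SNO1 and SNZ1. ARO10, the decarboxylase of the Ehrlich pathway that turns amino acids into fusel alcohols (YDR380W, chromosome IV, 1234218 to 1236125), was at 15.4, 27.1 and 13.4 CPM in the LiCl cultures and at 2.27, 2.00 and 2.08 CPM in the control cultures. The groups did not overlap, and the log2 fold change was 3.11 (standard error 0.24, edgeR adjusted p = 5.44e-07). ARO9, the aminotransferase of the same pathway, was at 32.5, 45.7 and 30.6 CPM in LiCl and 7.84, 6.29 and 7.002 CPM in control medium, a log2 fold change of 2.35 (standard error 0.15). Every LiCl culture lay above every control culture. Of the 18 genes of aromatic and branched amino acid breakdown 13 rose and 1 fell, with a median log2 fold change of 0.54 against 0.02 over all genes tested. Among the risers were the aryl-alcohol dehydrogenase genes AAD16 (1.77) and AAD6 (1.52) and the alcohol dehydrogenase gene ADH5 (1.39).

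SNO1 and SNZ1 encode the 2 subunits of the enzyme that makes pyridoxal phosphate. SNO1 was at 126, 123 and 110.2 CPM in LiCl, against 19.97, 14.4 and 11.97 CPM in control medium (log2 fold change 2.99, standard error 0.22, edgeR adjusted p = 8.5e-07). SNZ1, on the other side of their shared upstream region, was at 629, 620.1 and 526 CPM in LiCl and 140.3, 103 and 97.0 CPM in control medium (2.40, standard error 0.20). The 3 LiCl cultures were close to one another for both genes and clear of the controls. The rest of the list moved little: of 29 genes for vitamin B6, thiamine and biotin 7 rose and 3 fell, with a median of 0.16, or -0.01 without replicate 1.

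FRM2, a nitroreductase-like gene, rose to 32.2, 24.3 and 22.9 CPM in LiCl, against 4.01, 3.81 and 3.36 CPM in control medium (log2 fold change 2.82, standard error 0.20, edgeR adjusted p = 1.8e-07). SUL1, the high-affinity sulfate permease, rose to 26.4, 39.0 and 18.99 CPM, against 5.81, 4.91 and 4.73 CPM (2.45, standard error 0.28). Both were non-overlapping, with the highest LiCl value of SUL1 in replicate 2. ZPS1, a zinc-regulated cell surface protein, rose to 226, 195 and 140.3 CPM, against 43.4, 48.3 and 64.0 CPM (1.83, standard error 0.26), and the zinc transporter gene ZRT1 rose by 1.03 on the log2 scale. In the whole list of iron, copper and zinc genes 16 of 43 (37.2%) rose and 6 (13.95%) fell (median 0.18), beside 26.4% and 21.7% of all genes tested. The remaining genes among the 12 largest rises were RRP36 and SSF1 of ribosome assembly, ADF1 (1.99), which overlaps FYV5 so that its counts are uncertain, and SOE1, a transfer RNA gene (1.96).

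**Figure D2:**
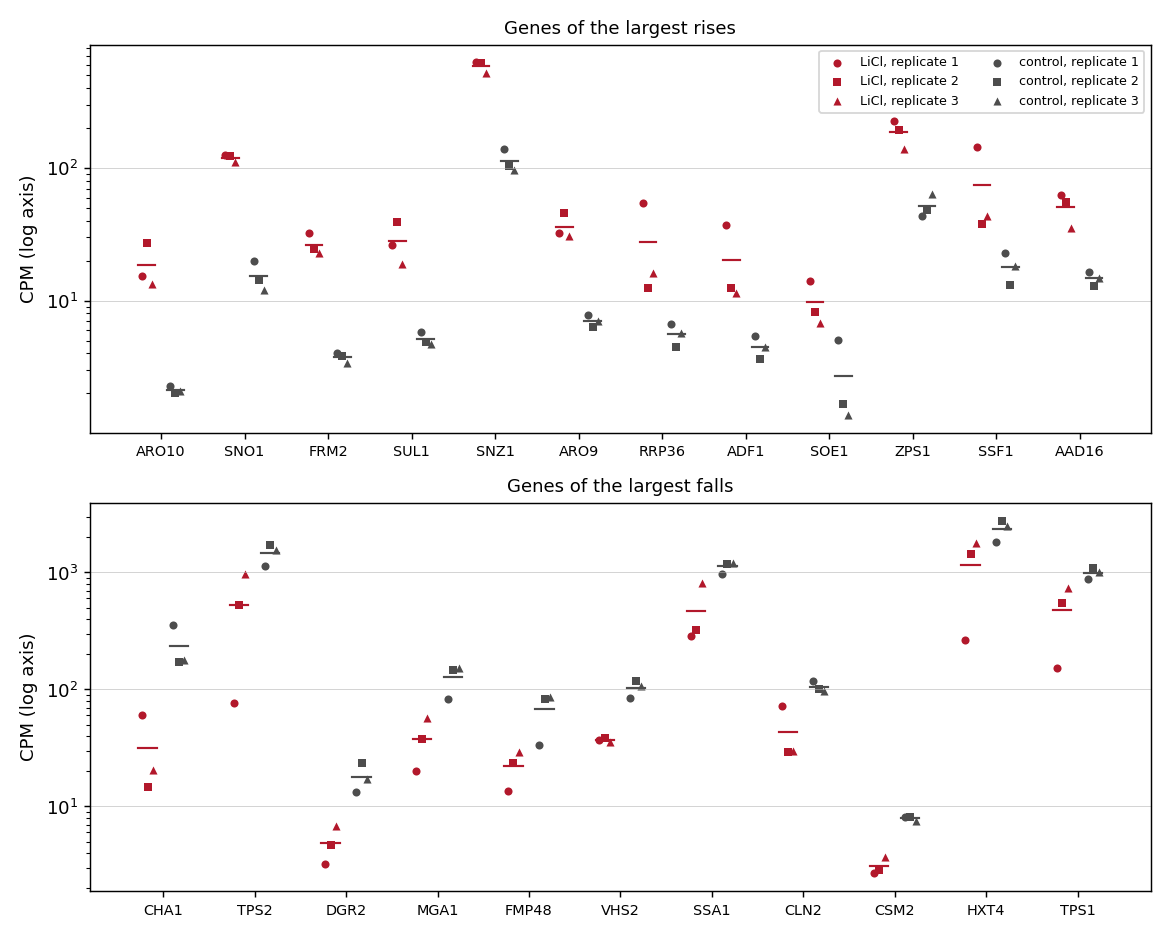
CPM (log axis) of named genes with the largest rises (top) and falls (bottom), each with the 3 LiCl cultures of hcm1-8E in red to the left of its 3 control cultures in grey; marker shapes give the replicate number and bars the means. ARO10, SNO1, FRM2 and SNZ1 have tight groups far apart, whereas TPS2, HXT4 and TPS1 have 1 very low LiCl culture, replicate 1 (76.8 CPM for TPS2).

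Most ribosome assembly factors rose in LiCl. Of 124 such genes 109 rose, 0 fell and 15 did not pass, with a median log2 fold change of 0.81. RRP36, a factor of early ribosomal RNA processing whose upstream sequence is printed above, was at 54.3, 12.6 and 16.1 CPM in LiCl and 6.61, 4.43 and 5.68 CPM in control medium (log2 fold change 2.04, standard error 0.32, edgeR adjusted p = 0.000252). SSF1, needed for assembly of the large subunit, was at 144, 37.6 and 43.7 CPM in LiCl and 22.8, 13.2 and 18.3 CPM in control medium (1.78, standard error 0.22). In both genes the LiCl cultures lay above the controls, with replicate 1 several times higher than replicates 2 and 3. The RNA helicase gene DBP7 (1.68) and REI1 (1.66), a factor of late large subunit maturation, showed the same order, and the CPM of REI1 overlapped between the groups while all 3 of its pairs rose. REI1 shares its locus with SLM6, so its counts are uncertain. The median of the 124 genes was 1.23 in pair 1, 0.51 in pair 2 and 0.64 in pair 3. Without replicate 1 90 rose and 6 fell (median 0.59), and without the block 47 rose and 0 fell. SSF1, DBP7 and REI1 did not pass without the block (edgeR adjusted p = 0.0513, 0.0954 and 0.0942), while RRP36 did, and RRP36 had a log2 fold change of 1.48 without replicate 1.

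Genes of the polymerases that transcribe ribosomal and transfer RNA followed with smaller changes. Of 37 subunits and factors of RNA polymerase I and III 24 rose and 2 fell (median 0.41), or 8 and 1 without the block and 14 and 3 without replicate 1. RRN3, which brings polymerase I to its promoter, was at 95.7, 44.6 and 50.4 CPM in LiCl and 38.4, 31.8 and 30.8 CPM in control medium (0.82, standard error 0.14). RRN11 of the core factor had a log2 fold change of 1.41, but it rested on replicate 1, at 48.2 CPM against 10.4 and 7.25 CPM in the other LiCl cultures, and without that replicate it was 0.82. Its call was lost without LiCl replicate 1, without control replicate 1 and without both cultures of replicate 2, where the log2 fold change was 1.57. Without the block neither RRN3 nor RRN11 passed (edgeR adjusted p = 0.109 and 0.168). The PAC element was found in 62.9% of the 124 upstream windows of ribosome assembly genes and in 45.9% of those of the polymerase list, compared with 18.4% of all 6006 windows searched, both strands counted. The 2 lists hold genes of the kinds in which PAC is known, so the shares within them say nothing about these data. PAC stood in 39.9% of the windows of genes that rose by at least 1 on the log2 scale. These include 36 ribosome assembly genes. Among genes that fell as much the share was 17.9%.

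The ribosomal proteins themselves went the other way. Of 138 cytosolic ribosomal protein genes 82 fell, 1 rose and 55 did not pass, with a median log2 fold change of -0.30. RPL8A was at 484, 346 and 312 CPM in LiCl and 787, 733 and 773 CPM in control medium, without overlap (-1.03, standard error 0.11, edgeR adjusted p = 4.46e-06). RPS11A was at 1246, 735 and 679.7 CPM in LiCl and 1565, 1614 and 1655 CPM in control medium (-0.89), and RPL7A had a log2 fold change of -0.78. Each of the 3 has a near-identical paralog, RPL8B, RPS11B or RPL7B, so reads may be divided between the copies differently from the transcripts. Here replicate 1 changed least: the median of the list was -0.06 in pair 1 and -0.42 in both pair 2 and pair 3, and without replicate 1 103 genes fell. Without the block 47 fell. The summed level of the list was 185070, 138720 and 140750 CPM in LiCl, against 198410, 189410 and 196000 CPM in control medium. With scaling by library totals, which puts all genes 0.10 higher, 65 of the 138 passed in either direction, against 83 with TMM. Of 74 mitochondrial ribosomal protein genes 10 (13.5%) rose and 17 (23.0%) fell (median -0.02), or 20 and 14 without replicate 1.

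**Figure D3:**
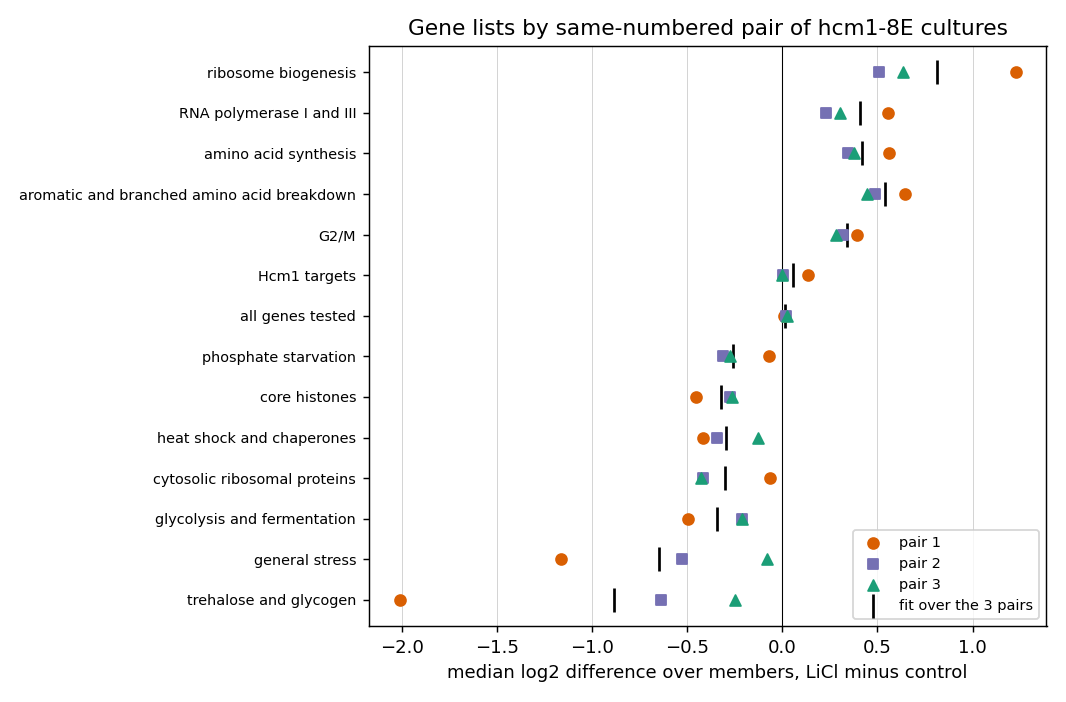
Median log2 difference, LiCl minus control, over the members of gene lists and over all genes tested (rows) in each same-numbered pair of hcm1-8E cultures (coloured points) and in the fit over the 3 pairs (black bars). Pair 1 lies far to the right for ribosome biogenesis (1.23) and far to the left for trehalose and glycogen (-2.01), and nearer 0 than the other pairs for cytosolic ribosomal proteins (-0.06), while amino acid synthesis and G2/M differ little between pairs.

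Amino acid synthesis genes of the kind that Gcn4 controls rose. Of 62 genes 37 rose, 3 fell and 22 did not pass (median 0.42), and the medians of the pairs were 0.56, 0.34 and 0.38. LEU4, which catalyses the first step of leucine synthesis, was at 2567, 3051 and 3153 CPM in LiCl and 1012, 971 and 948 CPM in control medium (log2 fold change 1.58, standard error 0.10, edgeR adjusted p = 4.37e-08). The groups were narrow and far apart. Other rises of the list included the arginine synthesis genes ARG1 (1.40) and ARG7 (1.30). ARG1 was at 2352, 1296 and 1487 CPM in LiCl, against 574, 669.9 and 668 CPM in control medium. TRP4 of tryptophan synthesis rose by 1.14 on the log2 scale. A Gcn4 site was present in 61.3% of the upstream windows of the 62 genes, in 15.03% of those of all genes that rose by at least 1 on the log2 scale, and in 8.44% of all windows. The SNZ1 window printed above holds 3, although the site stood in 6 of the 29 windows of its own list, vitamin B6 and thiamine. The 62 genes were picked as genes of the kind that Gcn4 controls, so their share of 61.3% says nothing about these data.

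In contrast to these biosynthetic genes, CHA1, the serine and threonine deaminase that lets yeast use these amino acids as nitrogen source, had the largest fall of the named genes. It was at 60.6, 14.6 and 20.4 CPM in LiCl and 358, 171 and 179 CPM in control medium (log2 fold change -3.01, standard error 0.21, edgeR adjusted p = 6.44e-07). The groups were well apart in all pairs, and without replicate 1 the log2 fold change was -3.35. PUT1, which starts proline breakdown, fell as well (-1.35), and the GABA transaminase gene UGA1 had -0.72. Of 43 genes of nitrogen catabolite repression and amino acid permeases 10 (23.3%) rose and 6 (13.95%) fell (median 0.06), beside 26.4% and 21.7% of all genes tested. Without the block 6 rose and 2 fell, and PUT1 and UGA1 did not pass there (edgeR adjusted p = 0.0893 and 0.0749).

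Sulfur assimilation and methionine synthesis moved in both directions, with 17 of 42 genes (40.5%) higher and 10 (23.8%) lower (median 0.10), beside 26.4% and 21.7% of all genes tested. The counts were 13 and 6 without the block and 12 and 14 without replicate 1. Besides SUL1, HOM2, whose product makes a precursor shared by threonine and methionine, rose to 2603, 2392 and 2254 CPM in LiCl, against 999.6, 971 and 1020.1 CPM in control medium (1.28, standard error 0.11). STR3, for homocysteine synthesis from cystathionine, had 7.70, 35.4 and 13.1 CPM in LiCl and 20.3, 80.0 and 75.5 CPM in control medium (-1.66), and MET2 had -1.38. The levels of both falling genes overlapped between the groups because replicate 1 was low in both media, while each pair fell. Purine genes were close to the shares of all genes, with 6 (28.6%) higher and 5 (23.8%) lower of 21. Pyrimidine genes were mixed, with 7 (43.8%) higher and 5 (31.25%) lower of 16. BAS1, an activator of purine and histidine genes, rose by 1.72 on the log2 scale, and ADE2 fell by 0.86. STR3 and ADE2 did not pass without the block (edgeR adjusted p = 0.0898 and 0.122).

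Of the 6 genes for enzymes that lithium inhibits and their paralogs, 2 rose and 3 fell. MET22 was at 194, 139 and 133 CPM in LiCl and 107, 113 and 109 CPM in control medium, a log2 fold change of 0.49 (standard error 0.11, edgeR adjusted p = 0.00216), or 0.27 without replicate 1. The inositol monophosphatase gene INM1 rose in each pair, with overlapping groups (0.63, edgeR adjusted p = 0.0745 without the block), and its paralog INM2 fell (-0.38). PGM1, the minor phosphoglucomutase, fell by 0.35 on the log2 scale, a call that was lost in 4 of 9 fits with libraries left out (LiCl replicate 3, control replicate 1, control replicate 2, and both cultures of replicate 2). PGM2, the major phosphoglucomutase, was at 25.7, 369.5 and 888 CPM in LiCl and 733, 1371 and 1214 CPM in control medium. Its log2 fold change of -2.32 (standard error 0.90) did not pass (edgeR adjusted p = 0.0556), and replicate 3 of LiCl lay inside the control range. Without replicate 1 it was -1.10 with an adjusted p of 0.0287 from edgeR, and without replicate 3 it was -3.53 and did not pass. Among 23 genes of RNA decay, the process that Met22 inhibition disturbs, 11 rose and 4 fell (median 0.23, 6 and 3 without the block). RAT1, the nuclear exonuclease, rose by 0.63 and the deadenylase gene CCR4 fell by 0.60 on the log2 scale, a call lost without replicate 2 (-0.49).

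ENA1, the main lithium and sodium pump, rose in all 3 LiCl cultures. It was at 47.5, 161 and 58.5 CPM, against 28.0, 28.5 and 25.8 CPM in control medium (log2 fold change 1.62, standard error 0.38, edgeR adjusted p = 0.0044). Replicate 2 was the highest by far, and without the replicate 2 cultures the log2 fold change was 0.96. ENA5 rose by 0.50, and ENA2 was too low to be tested, at 0.308 to 0.627 CPM in LiCl and 0.142 to 0.33 CPM in control medium. ENA1, ENA2 and ENA5 are near-identical copies side by side on chromosome IV, so their reads cannot be fully separated. Of 21 cation transport genes tested 7 (33.3%) rose and 4 (19.05%) fell, beside 26.4% and 21.7% of all genes tested (median 0.03), or 4 and 2 without the block. PMA2, a plasma membrane proton pump, rose by 0.81, whereas HAL1, which favours potassium over sodium, and the phosphatase gene PPZ2, a negative regulator of ENA1, both fell by 0.71 on the log2 scale. Neither passed without the block (edgeR adjusted p = 0.0658 for HAL1 and 0.127 for PPZ2), and PPZ2 was also lost without control replicate 1 and without replicate 2.

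Of 20 genes for calcineurin, its regulators and calcium transport 9 fell and 1 rose (median -0.18), or 3 and 1 without the block. RCN2, encoding a calcineurin regulator, was at 35.96, 82.1 and 88.1 CPM in LiCl and 109.8, 167 and 157 CPM in control medium (-1.17, standard error 0.20, edgeR adjusted p = 0.000278). CMP2, a catalytic subunit, fell by 0.95 and RCN1, a calcineurin inhibitor that Crz1 induces after calcium pulses, by 0.42. Neither RCN2 nor RCN1 passed without the block (edgeR adjusted p = 0.094 and 0.258), and RCN1 was lost without replicate 3 (-0.27). CRZ1, the transcription factor that calcineurin dephosphorylates, was at 49.4, 64.1 and 61.8 CPM in LiCl and 46.1, 62.9 and 78.7 CPM in control medium and did not pass (-0.08, edgeR adjusted p = 0.557). The calcium pump genes PMC1 (-0.51) and PMR1 (0.03) did not pass either, though without replicate 1 PMC1 passed at -0.28 (edgeR adjusted p = 0.0268). Of 17 genes known for Crz1-dependent induction 4 rose, among them ENA1, TRP4 and the glucan synthase gene GSC2 (0.82), and 4 fell (0 without the block, 7 without replicate 1). This is 23.5% in each direction, close to the 26.4% and 21.7% of all genes tested. The core of the calcineurin response element, GNGGCNCA, stood in 4.86% of all windows, in 4.05% of those of genes that rose by at least 1 on the log2 scale and in 3 of the 17.

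Of 34 genes of the general stress response 12 fell, 3 rose and 19 did not pass in LiCl (median -0.65), and of 19 trehalose and glycogen genes 7 fell, 0 rose and 12 did not pass (median -0.88). TPS2, trehalose phosphatase, was at 76.8, 525 and 967 CPM in LiCl and 1126, 1726 and 1554 CPM in control medium. TPS1, trehalose phosphate synthase, was at 152, 547 and 732 CPM in LiCl, against 884, 1099 and 1015 CPM. In both genes the LiCl cultures lay below all controls and replicate 1 was far below replicates 2 and 3. The log2 fold change was -2.07 for TPS2 (standard error 0.78, edgeR adjusted p = 0.0498) and -1.35 for TPS1 (standard error 0.39), and without replicate 1 they were -1.18 and -0.75. Neither passed without the block (edgeR adjusted p = 0.255 for TPS2 and 0.188 for TPS1). The call of TPS2 was lost in 6 of 9 fits with libraries left out (LiCl replicates 1 and 2, control replicates 1 and 2, and both cultures of replicate 2 or 3), and that of TPS1 in 3 (LiCl replicate 1, control replicate 1, and both cultures of replicate 2). SOD2, the mitochondrial superoxide dismutase, was at 121, 137 and 165 CPM in LiCl and 299.8, 388 and 360.1 CPM in control medium (-1.31, standard error 0.12), with no culture standing apart. The medians of the trehalose and glycogen list were -2.01, -0.64 and -0.25 in the pairs, and those of the general stress list -1.16, -0.53 and -0.08. Without the block 0 of the 19 and 1 of the 34 fell, and without replicate 1 11 and 16 fell, with medians of -0.44 and -0.45. STRE matches were found in 78.9% and 82.4% of the windows of the 2 lists, in 59.5% of the windows of genes that fell by at least 1 on the log2 scale, in 13.9% for those that rose as much, and in 23.5% of all windows. TPS1 and TPS2, printed above, are examples. The 2 lists hold genes of the kind that Msn2 and Msn4 act on, so the shares within them say nothing about these data.

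Heat shock genes were among the other large falls. SSA1, a cytosolic Hsp70, was at 287, 320.1 and 810.1 CPM in LiCl and 975, 1188 and 1216 CPM in control medium (-1.37). SSA1 is nearly identical to SSA2, and it did not pass without the block (edgeR adjusted p = 0.0551). Of 33 heat shock and chaperone genes 11 fell and 1 rose (median -0.30, 7 and 1 without the block). SSC1, the mitochondrial Hsp70, fell evenly by 0.88 on the log2 scale. MGA1, a protein similar to heat shock factors, fell by 1.80, with 20.1, 37.5 and 56.8 CPM in LiCl and 82.1, 146 and 152 CPM in control medium, a call lost without replicate 2 (-1.74). VHS2 and DGR2 fell by 1.46 and 1.90 on the log2 scale, and FMP48 by 1.58, a call lost without replicate 2 (-1.47), without replicate 3 (-1.59) and without the block (edgeR adjusted p = 0.0595). CSM2, a recombination factor, was at 2.69, 2.88 and 3.69 CPM in LiCl, against 8.17, 8.15 and 7.48 CPM (-1.37).

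Genes of sugar uptake and use moved in both directions. HXT4, a hexose transporter that low glucose induces, was at 267, 1436 and 1785 CPM in LiCl and 1826, 2781 and 2502 CPM in control medium (-1.36, standard error 0.39, edgeR adjusted p = 0.0139, and -0.73 without replicate 1). HXT1, induced by high glucose, went up in each pair, with 1722, 637 and 1158 CPM in LiCl and 1139.5, 458 and 509 CPM in control medium (0.77), although the groups overlapped. Neither passed without the block (edgeR adjusted p = 0.249 for HXT4 and 0.318 for HXT1). HXT4 was lost without control replicate 1 and without replicate 2 (-1.59), and HXT1 without LiCl replicate 3 and without replicate 3 (0.52). Of 27 genes of glycolysis and fermentation 10 (37.0%) fell and 3 (11.1%) rose (median -0.34), beside 21.7% and 26.4% of all genes tested. GPM1, phosphoglycerate mutase, was at 5120.1, 4933 and 4804 CPM in LiCl and 9876, 9341 and 9442 CPM in control medium, a log2 fold change of -0.95 (standard error 0.10) with tight groups. TDH1 had -1.52 because of replicate 1, at 166 CPM, and -0.67 without it. It did not pass without the block (edgeR adjusted p = 0.302) and was lost in 4 of 9 fits with libraries left out (LiCl replicates 1 and 2, control replicate 1, and both cultures of replicate 2). HAP4, the activator of respiratory genes, fell by 1.25, a call lost without replicate 2 (-1.14), and JEN1, the lactate permease, rose by 1.40 on the log2 scale. Of 40 genes of oxidative phosphorylation 3 (7.5%) rose and 6 (15%) fell (median -0.16), fewer in each direction than among all genes tested. The counts were 1 and 3 without the block, and 6 and 5 without replicate 1, where the median was 0.04.

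More genes of the osmotic stress pathway fell than rose. Of 30 genes of the HOG pathway and glycerol metabolism 13 (43.3%) fell and 5 (16.7%) rose (median -0.15, 8 and 5 without the block), beside 21.7% and 26.4% of all genes tested. GPD1, the first enzyme of glycerol synthesis, was at 280.1, 484 and 742 CPM in LiCl and 909, 932 and 874 CPM in control medium (-0.99, standard error 0.32, edgeR adjusted p = 0.0228, and -0.60 without replicate 1). Its call was lost without the block (edgeR adjusted p = 0.155) and without LiCl replicate 1, LiCl replicate 2, control replicate 1 or both cultures of replicate 2. The methylglyoxal reductase gene GRE2 rose by 0.87, and SGD1, named for osmotic tolerance and also needed for ribosome assembly, by 1.09 on the log2 scale. Phosphate genes were lower, with 15 of 27 falling and 1 rising (median -0.26), or 7 and 1 without the block, and with scaling by library totals 8 of the 27 passed in either direction. PHO84, the high-affinity phosphate transporter, was at 2.51, 1.95 and 1.28 CPM in LiCl and 8.69, 6.34 and 3.69 CPM in control medium (-1.70), but it overlaps an antisense RNA, and the strand setting of the counting was not given in the sources used here. PHO4, the activator of this regulon, was the gene that rose (1.04).

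**Figure D4:**
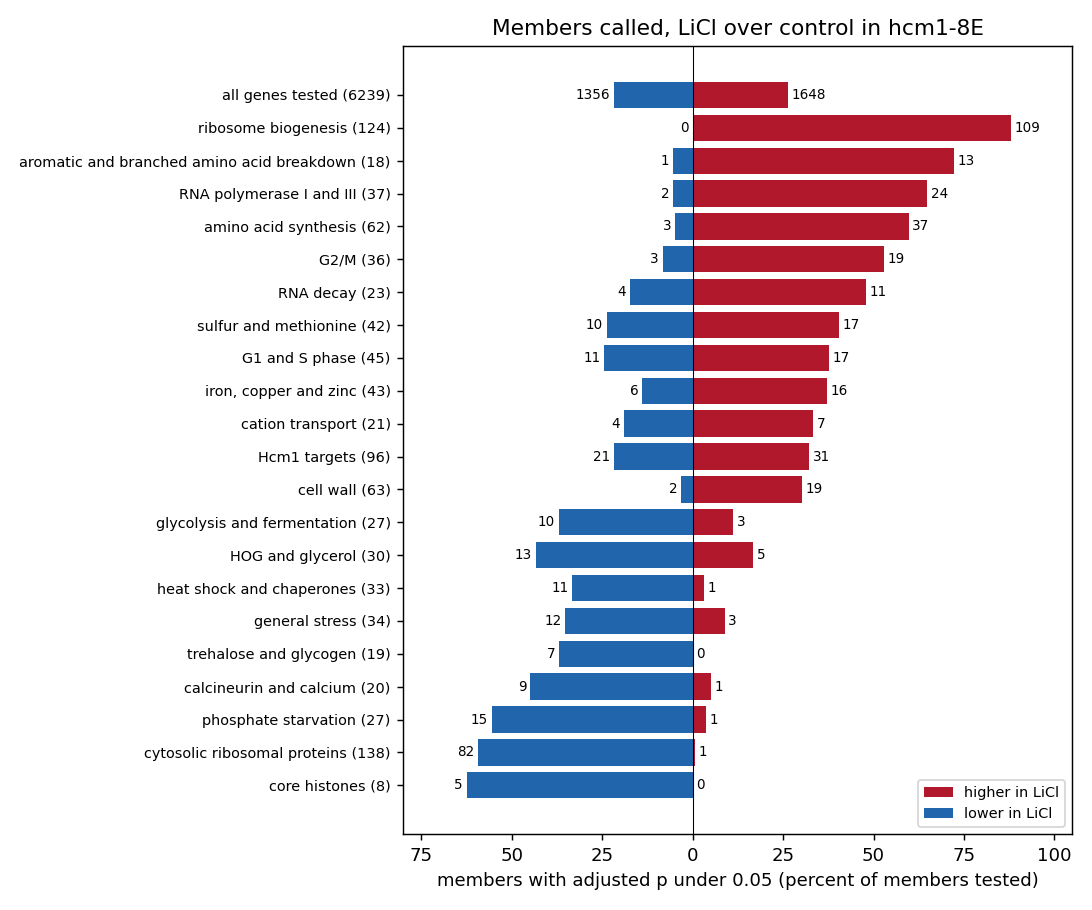
Members of 21 gene lists and of all genes tested (rows, number tested in brackets) with an adjusted p under 0.05, as a percent of those tested: lower in LiCl to the left, higher to the right, with the counts beside the bars. Ribosome biogenesis (109 of 124 higher) and cytosolic ribosomal proteins (82 of 138 lower) lean in opposite directions, compared with 1648 higher and 1356 lower of 6239 for all genes.

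The cell cycle lists, which bear on Hcm1 itself, changed by smaller amounts. Of 36 genes of the G2/M cluster 19 rose and 3 fell (median 0.34). MYO1, the myosin of the cytokinetic ring, was at 42.1, 48.0 and 46.9 CPM in LiCl and 20.8, 18.8 and 19.4 CPM in control medium (1.22, standard error 0.10, edgeR adjusted p = 6.44e-07), and BUD4 rose by 1.203 and the mitotic exit gene SPO12 by 0.93 on the log2 scale. All 3 had narrow, separate groups. In a bulk culture a change in the share of cells at a stage and a change of RNA per cell cannot be told apart. The G1 cyclin genes fell: CLN2 was at 72.4, 29.1 and 29.5 CPM in LiCl and 118, 101.3 and 98.0 CPM in control medium (-1.37), and CLN1 had -0.96. RNR1, the large subunit of ribonucleotide reductase, rose by 1.17 (edgeR adjusted p = 0.0565 without the block) and the cohesin gene MCD1 by 0.98. In the list 17 of 45 G1 and S phase genes (37.8%) rose and 11 (24.4%) fell (median 0.20), beside 26.4% and 21.7% of all genes tested. The counts were 7 and 8 without the block and 12 and 12 without replicate 1 (median 0.04). Of 8 core histone genes 5 fell (median -0.32), led by HTB1 (-0.67).

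The 96 Hcm1 targets, a published list that the study supplies, showed 31 genes (32.3%) higher and 21 (21.9%) lower, close to the 26.4% and 21.7% of all genes tested, with a median log2 fold change of 0.06 against 0.02 over all genes tested, and with 1 gene past a change of 1 on the log2 scale in each direction. SPP41 rose by 1.05, and PCL7, a cyclin of the Pho85 kinase, fell by 1.18. PCL7 was at 41.6, 68.0 and 87.5 CPM in LiCl and 139, 153 and 133 CPM in control medium. WHI5, the G1 repressor and a known Hcm1 target, was at 7.75, 4.91 and 6.77 CPM in LiCl and 4.20, 5.34 and 3.93 CPM in control medium (0.51, standard error 0.17, edgeR adjusted p = 0.0173). Its groups overlapped, and the call was lost in 6 of 9 fits with libraries left out, those without replicate 1 (0.30), replicate 3 (0.37) or a single culture of either, while it was 0.82 without replicate 2. Without the block 24 targets rose and 12 fell, beside 17.1% and 12.5% of all genes. Without replicate 1 26 targets rose and 22 fell, and the median was -0.05. The forkhead core GTAAACAA was in 15.6% of the target windows and 30.6% of the G2/M windows, compared with 2.91% of all windows. The targets were listed as genes of a forkhead factor, so their share says nothing about LiCl.

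HCM1 itself (YCR065W, chromosome III, 229310 to 231004) fell in hcm1-8E cells. It was at 163, 135 and 142 CPM in LiCl and 220.3, 252 and 242 CPM in control medium, without overlap (log2 fold change -0.69, standard error 0.13, edgeR adjusted p = 0.000491). Reads of the plasmid and the genomic copy cannot be told apart. URA3, the plasmid marker, was at 536, 466 and 632 CPM in LiCl and 608, 495 and 621 CPM in control medium and did not pass (-0.08). GAL1, whose promoter drives the genomic copy, stood at 6.49, 8.58 and 8.97 CPM in LiCl and 10.2, 7.06 and 7.33 CPM in control medium, a difference of -0.03 that did not pass. GAL7 (-0.55) and GAL10 (0.51) passed in opposite directions at similar low levels, with calls lost in 5 and 4 of 9 fits with libraries left out, replicates 2 and 3 among them, and GAL7 also without the block (edgeR adjusted p = 0.292), and GAL1 and GAL10 overlap an antisense RNA.

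The remaining lists are given beside the 26.4% higher and 21.7% lower of all genes tested. Of 63 cell wall genes 19 rose and 2 fell (median 0.11), or 10 and 1 without the block and 18 and 5 without replicate 1, while RLM1, the transcription factor of the cell wall integrity pathway, was 1 of those that fell (-0.77). ERG5 and UPC2 rose in the ergosterol list by 1.17 and 1.13 on the log2 scale, although the list had 6 genes higher and 5 lower of 34, or 6 and 9 without replicate 1. In the list of peroxisomal and fatty acid genes, with 11 higher and 10 lower of 48, the carnitine acetyltransferase gene YAT1 rose by 0.98. ER folding genes had 10 lower and 3 higher of 30 (median -0.16), the proteasome 13 higher and 8 lower of 38 (15 and 5 without replicate 1), and autophagy 14 lower and 6 higher of 37 (3 and 4 without the block, 6 and 10 without replicate 1, and 12 in either direction with scaling by library totals). The mating genes AGA2 and ASG7 of a cells fell by 1.00 and 1.03. Transcripts that are mostly not polyadenylated were also counted in these polyadenylated libraries: 26 of 69 small nucleolar RNAs tested rose and 5 fell (median 0.39), and 19 of 47 transfer RNA genes tested rose and 0 fell (median 0.70). Without the block 14 and 1 of the small nucleolar RNAs and 12 and 0 of the transfer RNA genes did. snR33 was at 27.3, 34.2 and 32.5 CPM in LiCl, against 13.3, 12.1 and 13.2 CPM in control medium. The lists hold 78 and 299 genes, and the rest were too low to be tested. Some transfer RNA genes that were tested lay near the limit of counting. For example, tG(GCC)G2 was at 0.72, 0.84 and 0.66 CPM in LiCl and 0.14, 0.095 and 0.047 CPM in control medium. A count of 3 is 0.138 to 0.139 CPM in these libraries. The count filter keeps a gene that is high enough in 1 group alone. A lean to rises among such low genes cannot be separated from this filter.

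The response of hcm1-8E was then compared with that of the other strains by interaction terms in the same fit. Relative to WT, 21 genes (0.337% of those tested) differed in their response, 5 (0.0801%) higher and 16 (0.256%) lower in hcm1-8E, and relative to hcm1-3N 12 genes (0.192%) did, 10 (0.16%) higher and 2 (0.0321%) lower. Without the replicate block edgeR called 0 genes in either comparison, with 643 and 561 genes at an unadjusted p under 0.05, and DESeq2 with the block called 231 and 182. The counts also moved with single cultures: without replicate 1 they were 441 and 609, without LiCl replicate 1 of hcm1-8E 201 and 413, without replicate 2, LiCl replicate 2 or control replicate 2 of hcm1-8E 0 and 0, without replicate 3 0 and 2, without LiCl replicate 3 of hcm1-8E 3 and 3, and without its control replicate 1 or 3 21 and 81 or 16 and 1. The comparisons share the hcm1-8E libraries and are not independent of each other. All 21 and all 12 kept the sign of the difference in every fit tried.

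YGP1, a secreted glycoprotein gene of nutrient and stress responses, had the largest of the differences from WT. It was at 412, 527 and 753 CPM in LiCl and 440.4, 678 and 664 CPM in control medium in hcm1-8E, where it did not pass (-0.09), and at 997, 1784 and 1863 CPM in LiCl and 251, 734 and 748 CPM in control medium in WT. The difference of the log2 fold changes was -1.58 (standard error 0.25, edgeR adjusted p = 0.0166). HCM1 was 1 of the 21, with a difference of -1.11 (standard error 0.18): it fell in hcm1-8E, as given above, and was at 348, 471 and 378 CPM in LiCl and 281, 293 and 324 CPM in control medium in WT. The plasmid marker URA3, which did not pass in hcm1-8E, was higher in LiCl in each pair of the other strains. It was at 1119, 1485 and 1354.5 CPM in LiCl and 739, 849 and 777 CPM in control medium in WT. In hcm1-3N it was at 730, 1166 and 966 CPM in LiCl and 552, 524 and 615 CPM in control medium. A link between the HCM1 and URA3 differences was not tested. TPO4, a polyamine exporter, had 172, 181 and 206 CPM in LiCl and 231, 365 and 402 CPM in control medium in hcm1-8E, compared with 192, 377 and 383 CPM in LiCl and 194, 235 and 255 CPM in control medium in WT (-1.24). The LiCl responses of PUT1 (-1.16) and of CWP2, a major mannoprotein of the cell wall (-1.06), were also lower in hcm1-8E than in WT. CWP2 did not pass in hcm1-8E itself (-0.22).

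FIG1, a mating membrane protein gene at low level, differed from both strains. Its level in hcm1-8E was 7.03, 4.999 and 4.22 CPM in LiCl and 9.16, 7.06 and 7.66 CPM in control medium. In hcm1-3N it was 18.6, 14.9 and 18.9 CPM in LiCl and 11.1, 9.15 and 11.2 CPM in control medium, and in WT 7.02, 5.86 and 4.60 CPM in LiCl and 2.55, 3.08 and 3.40 CPM in control medium. It thus went down in each pair of hcm1-8E and up in each pair of the other strains, with differences of -1.30 from hcm1-3N and -1.50 from WT.

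The genes with a stronger rise than in hcm1-3N included 3 members of the list of aromatic and branched amino acid breakdown. AAD16 was at 62.3, 55.1 and 35.4 CPM in LiCl and 16.6, 12.9 and 14.8 CPM in control medium in hcm1-8E, and at 23.1, 18.4 and 21.8 CPM in LiCl and 21.7, 13.2 and 14.9 CPM in control medium in hcm1-3N (difference 1.40, standard error 0.21, edgeR adjusted p = 0.0367). Its neighbour AAD6 (1.15) followed the same pattern. ARO9 (1.29) also rose in hcm1-3N, but by less than in hcm1-8E. It was at 16.5, 17.2 and 18.95 CPM in LiCl and 8.50, 7.91 and 8.72 CPM in control medium in hcm1-3N. The differences of AAD16, AAD6 and ARO9 from WT were 0.37, 0.39 and 0.83 and did not pass. MAL33, a maltose regulator, differed from hcm1-3N by 1.16 with LiCl levels of 138, 252 and 219 CPM in hcm1-8E and 102, 102 and 116 CPM in hcm1-3N. ZWF1, the first enzyme of the pentose phosphate pathway, did not pass in hcm1-8E (0.08, or 0.26 with an edgeR adjusted p of 0.0403 without replicate 1), where 279.9, 531 and 447 CPM in LiCl stood against 351, 455 and 352 CPM in control medium. It was at 191, 267 and 253 CPM in LiCl and 336, 478 and 422 CPM in control medium in hcm1-3N, a difference of 0.88.

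**Figure D5:**
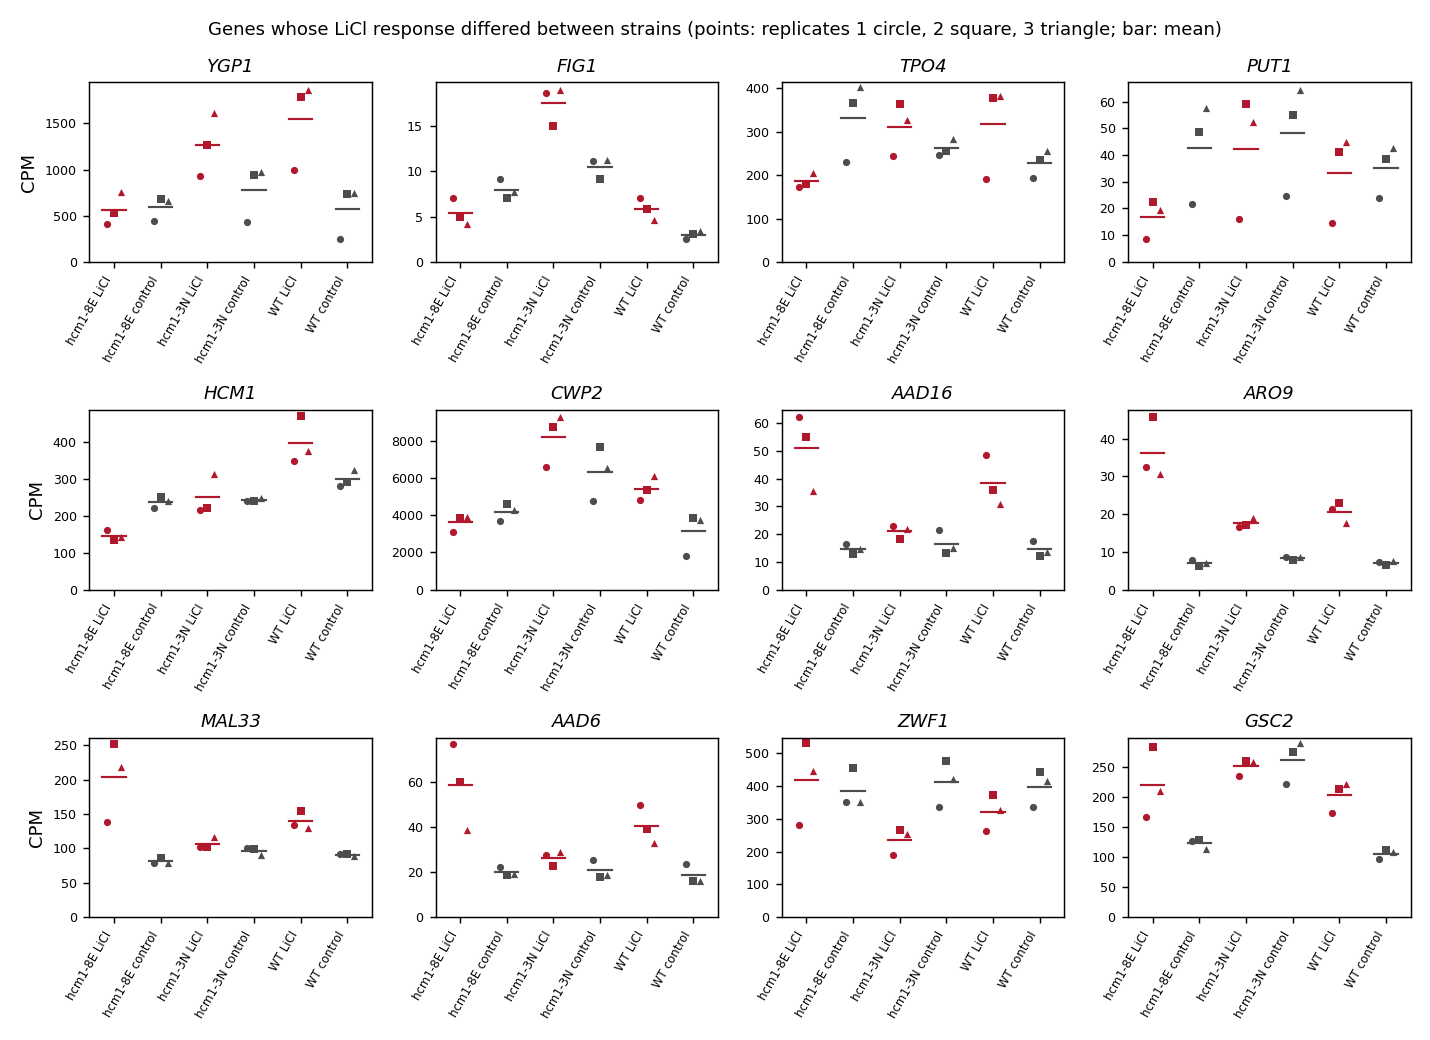
CPM of 12 genes whose LiCl response in hcm1-8E differed from that in WT (YGP1 to CWP2) or in hcm1-3N (AAD16 to GSC2), in the 6 groups, LiCl in red left of control in grey for each strain; points are the 3 replicates and bars the means. YGP1 lies higher in LiCl than in control medium in WT while its groups overlap in hcm1-8E (-0.09), and AAD16 and ARO9 reach their highest levels in the LiCl cultures of hcm1-8E (up to 62.3 and 45.7 CPM).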

How the data were processed

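Polyadenylated RNA of 18 cultures was sequenced with a strand-specific paired-end protocol. The authors aligned the reads to R64 and counted exon fragments with featureCounts, and these counts, deposited as integers, were tested. The TPM of the authors cover 6754 genes and sum to 1000000 a library, and served for markers and 1 alternative. All 18 libraries (6 groups) were fitted with edgeR 4.0.16 in R 4.3.3 (filterByExpr by group, TMM, robust quasi-likelihood test) with the replicate number as a block, and p-values were adjusted by the Benjamini-Hochberg method over 6239 genes at a threshold of 0.05. The labels give the replicate numbers, and all 45 same-numbered pairs of libraries deviated together (correlations above 0.1, mean 0.52), while 30 of 90 differently numbered pairs also exceeded 0.1 (mean over the 90 of -0.22). The negative mean follows from taking deviations around group means. A count of 3 corresponds to 0.137 to 0.159 CPM, a limit that covers counting error only.

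Members and gene lists were chosen with earlier results of these data known, and lists were described without a test. Genes were named by a rule: the 12 largest rises and falls among genes that passed, with a name in the table, at least 5 CPM on average, 3 pairs in 1 direction and no overlap; the 4 largest changes of each list; the 6 largest of each interaction; and a set of strain, lithium and calcineurin genes. Not every gene the rule names is reported here. Of 2016 unnamed genes 1007 took a name from RefSeq. Copies were found with blastn 2.17.0 (identity of 95%, 100 bases or longer), and motifs on both strands of 6006 windows. Alternatives were no block, DESeq2 1.42.0, other scalings and filters, the libraries of each contrast alone, limma 3.58.1 on log2 TPM with a pseudocount of 1, and libraries left out. The fit was tested on simulated data, in which replicate 1 had the same shift in both media. With the block it called 94 of 98 changes of 1 on the log2 scale, 21 of 99 changes of 0.5, and 3 unchanged genes. The simulation held no shift of replicate 1 that is larger in LiCl, so it does not test that case.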

Additional observations from a re-analysis of the deposited data

Results flagged for a closer look

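The LiCl response of hcm1-8E differed from that of another strain, by the interaction test of edgeR with the replicate block, for the genes below. Relative to WT the difference of log2 fold changes was -1.58 for YGP1, -1.50 for FIG1, -1.24 for TPO4, -1.16 for PUT1, -1.11 for HCM1 and -1.06 for CWP2. Relative to hcm1-3N it was 1.40 for AAD16, 1.29 for ARO9, 1.16 for MAL33, 1.15 for AAD6, 0.88 for ZWF1, 0.87 for GSC2, 0.83 for FRE2 and -1.30 for FIG1. GSC2 encodes a glucan synthase subunit and FRE2 a ferric reductase. None of these calls held without the replicate block or when the libraries of the contrast were fitted alone, while each difference kept its sign there.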

How the results depend on the processing

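The signs of all 186 named genes called in the LiCl response were the same in every alternative, 131 stayed called without the replicate block, 180 without replicate 1 and 146 in all 9 fits with libraries left out. Without the replicate block 1842 genes were called, 1065 higher and 777 lower, and with the libraries of the contrast alone 1596, 869 higher and 727 lower. Leaving out libraries gave 1808 to 2940 calls, 1059 to 1506 higher and 749 to 1434 lower, and the lowest counts came without replicate 2. Other scalings, filters and tests gave 2948 to 3088 calls. The share of higher genes among the calls was 67.6% with library totals and 67.8% with limma on log2 TPM, against 54.9% in the main fit. It was 50.4% with DESeq2, 51.9% with RLE size factors, 51.5% without the count filter and 50.9% with a stricter count filter.

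The interaction counts depended on the model. For hcm1-8E minus WT, 21 genes became 0 without the replicate block and 0 with the libraries of the contrast alone (643 and 1189 at an unadjusted p under 0.05 in edgeR), 231 with DESeq2, and 0 to 441 with libraries left out, 441 without replicate 1 and 0 without replicate 2 or replicate 3. For hcm1-8E minus hcm1-3N, 12 became 0 and 0 in the same fits (561 and 739 at an unadjusted p under 0.05), 182 with DESeq2, 25 with library totals, 53 with limma on TPM, and 0 to 609 with libraries left out, 609 without replicate 1 and 0 without replicate 2. The cause was not tested. The median standard error of a log2 fold change was 0.12 with 3 cultures a group, and genes under the low count filter were not tested.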
